A study of Homo sapiens with 9 samples.

Results

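The human chromosome 19 zinc finger genes were examined in RNA sequencing libraries of HEK293T cells, a line of human embryonic kidney origin transformed to express SV40 large T antigen. The genes were chosen as protein-coding genes of chromosome 19 in GENCODE 29 whose symbol is ZNF followed by digits, and 240 symbols met this description. Of these, 188 had at least 12 deposited counts in 3 or more of the 9 libraries and are the genes described, out of 16686 genes tested and 58734 in the count table. The other 52 symbols fell below the floor, and 19 of them had no count in any library. The floor is a choice on measured values: 3 of the chosen genes had a third-highest count of exactly 12, and the 5 nearest genes outside had 8. It favoured no group, since 170 of the 188 passed it in all 9 libraries and none passed it through the 3 libraries of a single group alone.

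Cells had been transfected with Ambion Silencer Select siRNA at 10 nM in Lipofectamine RNAiMAX and were harvested after 36 h. There were 3 groups of 3 libraries: control siRNA, siRNA against SIN3A and siRNA against SIN3B. All 9 libraries share the parent line and its T antigen, the labels name no clone, and the siRNA sequences are not given in the sources used here. Sample titles set the groups, since the treatment field names the control siRNA at its end for all 9 samples.

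SIN3A and SIN3B are paralogous scaffold proteins that hold the histone deacetylases HDAC1 and HDAC2 and are brought to genes by sequence-specific factors. Most chromosome 19 ZNF genes encode KRAB zinc finger proteins, in which an array of C2H2 fingers reads DNA and the KRAB domain recruits the corepressor TRIM28. TRIM28 in turn brings the histone methyltransferase SETDB1 and HP1 proteins, a route best known for silencing transposable elements. The genes lie in clusters that grew by tandem duplication, so neighbours are often similar in sequence.

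The libraries held 22542798 to 27084884 counts, and 98 to 98.46% of nonzero counts were multiples of 4, so the step between values is 4 counts and the effective depth is lower than the totals. SIN3A fell from 141, 147 and 148 CPM (counts per library scaled by TMM) in control libraries to 44.9, 49.9 and 47.0 CPM after its siRNA. SIN3B, itself a chromosome 19 gene, fell from 100.4, 97.0 and 91.1 CPM to 59.2, 53.8 and 52.3 CPM after its own. The SIN3A libraries lay further apart than the others: the SD over 10858 genes of the log2 ratio between replicates was 0.249 to 0.296 there, against 0.168 to 0.191 within the control and SIN3B groups. VIM, CDH2 and KRT18 were present at over 72 CPM in each group mean, PAX8 was near 0, and CD3E, PTPRC, HBB, DCN, COL1A2, KRT6A and TP63 were at 0 in all libraries. The labels do not say that replicates came from separate cultures, so the p-values reflect library-to-library spread that may be only technical. In such bulk samples a change in the RNA of each cell and a change in the share of cells that carry it cannot be told apart.

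Along the chromosome the 240 symbols formed 9 blocks, where a distance of over 1 Mb between neighbouring starts begins a new block, plus 9 isolated symbols of which 8 were expressed. The blocks were numbered from the start of the short arm. Block 1 (2.8 to 2.9 Mb) held 4 expressed genes, block 2 (7.1 to 9.8 Mb) 12, block 3 (11.5 to 12.6 Mb) 16 and block 4 (19.7 to 24.1 Mb, next to the centromere) 19. On the long arm, block 5 (34.7 to 35.0 Mb) held 5, block 6 (36.2 to 37.8 Mb) 23, block 7 (43.5 to 45.1 Mb) 21, block 8 (51.6 to 53.6 Mb) 30 and block 9 (55.5 to 58.5 Mb, reaching almost to the end of the arm) 50. The expressed share varied: 51.35% of the 37 symbols in block 4 passed the floor, against 95.83% of the 24 in block 6 and 87.72% of the 57 in block 9. Positions are those of GENCODE 29 on GRCh38.

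A KRAB A box was found in 155 of the 188 proteins and no such box in 33. The box was sought by a residue pattern in a single translated transcript per gene. Genes described here as having no KRAB box are those where it was not found, and some may still encode a KRAB domain. The median protein had 12 C2H2 fingers, with a range of 0 to 31. Levels were low: the median gene stood at 6.495 CPM in control libraries, against 28.4 CPM over all protein-coding genes tested, and 57 genes reached 10 CPM. Per length, block 3 was the lowest, with a median of 0.516 CPM per kb of exon, and block 2 the highest at 3.15 CPM per kb.

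Of the 6 genes with the highest mean CPM, 5 had no KRAB box. ZNF146 (ENSG00000167635, chr19:36214602-36238774), a protein of 10 fingers and little else, stood at 124 ± 4.1 CPM (SD, n = 3) in control libraries, which is 30.02 CPM per kb of exon. ZNF580 followed at 24.4, ZNF358 at 24.0 and ZNF428, which is outside those 6, at 22.4 CPM per kb. ZNF317, at 10.97 CPM per kb, was the KRAB gene among them, and the other genes of the 6 were ZNF121 and ZNF444, at 6.73 and 8.60 CPM per kb.

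**Figure D1:**
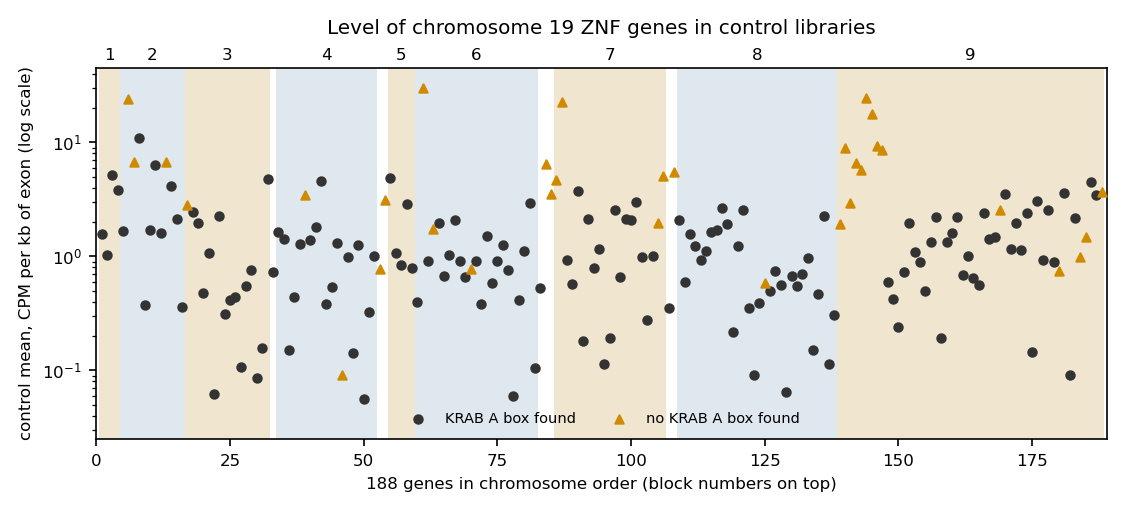
Level of each of the 188 expressed chromosome 19 ZNF genes in the control libraries (mean of 3, CPM per kb of exon, log axis) in chromosome order, with the 9 blocks shaded and numbered. Genes with no KRAB A box (triangles) hold the highest values, led by ZNF146 at 30.02 CPM per kb, and block 3 has the lowest median at 0.516.

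The promoter windows of these genes were described by their letters. In the RefSeq promoter windows of GRCh38.p14 (250 bases before to 50 after a start), 168 of the 188 genes had an entry, with a median of 22 CpG dinucleotides against 14 over all 35116 windows. The letters CCGGAAG, a core read by ETS factors, stood on either strand in 43.45% of the windows of these genes and in 10.26% of all windows. GGGCGG (GC box) stood in 67.26% against 44.95%, CCAAT in 50% against 34.61%, and TATAAA in 2.381% against 11.53%. These are descriptions of letters, not of binding. For each of these genes only the window nearest its GENCODE start was used, while all windows were taken as they stand. The sets were not matched for CpG count or gene type, so the shares are not shown to be particular to these genes. Some windows lie far from the GENCODE start, as that of ZNF627 does, at 38109 bases. The 4 windows printed here belong to genes on which the results turn: ZNF430 and ZNF845, higher after both knockdowns; ZNF568, whose window also covers the start of ZNF829 on the other strand; and ZNF579, lower after both. Each reads 5′ to 3′ on the strand of its gene, and capitals mark the ETS core, the GC box and the CCAAT letters on either strand, the reverse complement being capitalised where the match is on the other strand. In the ZNF430 window a GC box and an ETS core touch and form a single run of capitals.
ZNF430 promoter, chr19:21020407-21020706, plus strand: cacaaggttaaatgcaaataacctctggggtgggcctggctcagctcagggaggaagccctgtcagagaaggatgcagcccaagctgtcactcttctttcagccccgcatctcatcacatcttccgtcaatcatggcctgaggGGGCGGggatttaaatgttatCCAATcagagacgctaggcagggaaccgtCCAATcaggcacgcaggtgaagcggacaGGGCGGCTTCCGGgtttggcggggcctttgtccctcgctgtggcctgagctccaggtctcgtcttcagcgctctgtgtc
ZNF845 promoter, chr19:53333499-53333798, plus strand: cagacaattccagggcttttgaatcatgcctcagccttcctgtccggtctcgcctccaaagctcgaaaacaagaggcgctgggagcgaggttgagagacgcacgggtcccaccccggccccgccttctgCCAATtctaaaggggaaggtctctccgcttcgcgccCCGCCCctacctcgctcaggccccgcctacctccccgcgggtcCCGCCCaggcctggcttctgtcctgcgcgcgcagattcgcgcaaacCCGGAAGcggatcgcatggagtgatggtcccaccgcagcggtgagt
ZNF568 promoter, chr19:36916082-36916381, plus strand: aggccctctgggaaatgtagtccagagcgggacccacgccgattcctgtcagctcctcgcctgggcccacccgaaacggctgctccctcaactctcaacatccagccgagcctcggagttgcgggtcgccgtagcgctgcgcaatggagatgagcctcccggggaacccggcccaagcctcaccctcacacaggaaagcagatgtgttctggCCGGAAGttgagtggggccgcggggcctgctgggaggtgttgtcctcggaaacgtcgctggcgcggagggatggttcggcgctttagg
ZNF579 promoter, chr19:55580799-55581098, minus strand: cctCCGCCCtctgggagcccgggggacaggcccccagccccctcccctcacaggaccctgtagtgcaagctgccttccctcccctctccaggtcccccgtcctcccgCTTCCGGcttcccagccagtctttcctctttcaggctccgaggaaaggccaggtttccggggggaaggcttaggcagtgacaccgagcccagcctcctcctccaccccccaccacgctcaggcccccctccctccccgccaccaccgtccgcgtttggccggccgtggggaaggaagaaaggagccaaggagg

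After SIN3A knockdown few of these genes changed, and the changes ran both ways. Of the 188 genes, 8 were higher than control (4.26%, beside 12.2% of all genes tested) and 10 were lower (5.32%, beside 10.8%), by edgeR's quasi-likelihood F-test with Benjamini-Hochberg adjustment over all genes tested and a threshold of 0.05. All 8 that rose encode proteins with a KRAB A box, which was found in 155 of the 188. It was not found in 6 of the 10 that fell. The median log2 fold change over the 188 genes was -0.004, and over all genes tested it was -0.002. Libraries of both groups did not overlap in 23 genes higher (12.2%, beside 17.9% of all genes) and 19 genes lower (10.1%, beside 18.5%).

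The rises centred on block 8, which held 5 of the 8. ZNF845 (ENSG00000213799, chr19:53333746-53356906), a KRAB protein with 26 fingers, stood at 6.67, 5.01 and 7.02 CPM in control libraries and at 14.9, 8.91 and 12.99 CPM after SIN3A siRNA. All 3 knockdown libraries lay above all 3 controls, although replicate 2 was close to them. The rise was 0.98 ± 0.21 (SE) on the log2 scale, with an adjusted p of 0.00214 in edgeR.

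ZNF701 (ENSG00000167562, chr19:52555457-52587174), a KRAB protein with 7 fingers, stood at 3.02, 2.35 and 2.98 CPM in control libraries and at 4.60, 5.00 and 5.32 CPM after SIN3A siRNA. It rose by 0.84 ± 0.24 (edgeR adjusted p = 0.0172), and its 3 SIN3A libraries were close together. Its exons overlap those of ZNF808 and 7.23% of its 50-mers occur in another gene, so part of its count is uncertain. ZNF28 (0.65 ± 0.22), ZNF765 (0.59 ± 0.19) and ZNF480 (0.52 ± 0.15) were the other block 8 genes that rose, and all 3 carry a KRAB box.

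ZNF430 (ENSG00000118620, chr19:21020620-21060050), a KRAB gene with 11 fingers in block 4, stood at 7.15, 11.3 and 7.72 CPM in control libraries and at 14.9, 12.8 and 15.8 CPM after SIN3A siRNA. The groups did not overlap, and the rise was 0.73 ± 0.18 (edgeR adjusted p = 0.00648). ZNF100, also in block 4, rose by 0.52 ± 0.17, with 13.2% of its 50-mers shared with other genes. The calls of ZNF100 and ZNF28 were each lost in 10 of the 24 alternative settings tried.

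ZNF547 (ENSG00000152433, chr19:57363477-57379565) had the highest fold change, on few counts. It stood at 0.635, 1.25 and 0.175 CPM in control libraries and at 1.66, 1.56 and 2.98 CPM after SIN3A siRNA. The log2 change was 1.57 ± 0.52 (edgeR adjusted p = 0.0331), and its exons overlap TRAPPC2B, so it is a wide estimate on an uncertain count.

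Among the falls, the gene with the lowest p was ZNF580 (ENSG00000213015, chr19:55635016-55643469), a short protein with 3 fingers and no KRAB box in block 9. It stood at 68.0, 62.4 and 66.3 CPM in control libraries and at 39.0, 39.4 and 39.6 CPM after SIN3A siRNA. The knockdown libraries were within 1 CPM of each other and far below the controls. The fall was -0.74 ± 0.08 on the log2 scale (edgeR adjusted p = 3.2e-06). Its exons overlap those of CCDC106 and ZNF581, whose reads could be split between them.

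ZNF428 (ENSG00000131116, chr19:43607219-43619874), with a single finger and no KRAB box, stood at 38.9, 40.4 and 41.8 CPM in control libraries and at 29.8, 29.4 and 23.5 CPM after SIN3A siRNA. It fell by 0.55 ± 0.10 (edgeR adjusted p = 0.000823), and no library of either group crossed. ZNF579 (ENSG00000218891, chr19:55576770-55580845), with 8 fingers and no KRAB box, stood at 27.8, 30.2 and 30.4 CPM in control libraries and at 22.8, 20.5 and 21.6 CPM after SIN3A siRNA. Its fall was -0.45 ± 0.11 on the log2 scale, also without overlap. ZNF444, a SCAN domain protein, fell by 0.39 ± 0.10, and ZNF414 by 0.43 ± 0.14. ZNF837, the gene with the lowest log2 change among those called, fell by 1.14 ± 0.38 from a control mean of 3.07 CPM, a call lost in 10 of 24 alternative settings.

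The 4 KRAB genes that fell were ZNF627, ZNF470, ZNF548 and ZNF333. ZNF627 (ENSG00000198551, chr19:11559374-11619135) stood at 8.42, 8.60 and 11.2 CPM in control libraries and at 6.25, 5.16 and 5.48 CPM after SIN3A siRNA. The groups did not overlap, with a fall of 0.74 ± 0.18 (edgeR adjusted p = 0.00488). ZNF470 fell by 0.59 ± 0.20, ZNF548 by 0.57 ± 0.19 and ZNF333, an isolated gene, by 0.54 ± 0.18. Of ZNF548, 23.6% of the 50-mers occur in another gene.

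Leaving out control replicate 2 left 3 genes higher, leaving out control replicate 3 left 5, and leaving out SIN3A replicate 1 (which left 8 higher), control replicate 2 or control replicate 3 left 6 lower. When GC content and exon length were offset, 7 were higher and 10 lower, and a threshold on a fold of 1.2 left 2 higher and 3 lower.

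After SIN3B knockdown the calls ran almost wholly upward. Of the 188 genes, 24 were higher than control (12.8%, beside 12% of all genes tested) and 1 was lower (0.532%, beside 11.6%), in the same edgeR test. The share of rises was thus near the background, and the share of falls was below it. The median log2 fold change was 0.115 over the 188 genes and -0.015 over all genes tested, and 122 of the 188 lay above 0. Of the 24 that rose, a KRAB A box was found in 19 (12.26% of the 155 KRAB genes) and not in 5 (15.15% of the 33 others). Libraries did not overlap in 45 genes higher (23.9%, beside 20.9%) and 13 lower (6.91%, beside 22.1%). Both knockdowns were set against the same 3 control libraries, so their values are given side by side and no likeness between them is drawn.

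ZNF569 (ENSG00000196437, chr19:37411155-37469275), a KRAB protein with 18 fingers in block 6, had the lowest p. It stood at 6.19, 5.95 and 6.67 CPM in control libraries and at 11.5, 11.9 and 13.3 CPM after SIN3B siRNA. The groups lay well apart, and the rise was 0.96 ± 0.16 on the log2 scale (edgeR adjusted p = 0.000205). After SIN3A siRNA the same gene stood at 8.09, 6.88 and 8.45 CPM, a log2 change of 0.32 ± 0.16 that did not pass the test.

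ZNF614 (ENSG00000142556, chr19:52012765-52030240), a KRAB protein with 10 fingers in block 8, stood at 10.3, 7.82 and 10.5 CPM in control libraries and at 16.1, 21.1 and 20.5 CPM after SIN3B siRNA. Its rise was 1.01 ± 0.19 (edgeR adjusted p = 0.000638), with no overlap. In the SIN3A libraries it was scattered, at 14.9, 8.45 and 14.6 CPM.

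ZNF430 reached 11.9, 17.97 and 15.7 CPM after SIN3B siRNA, a rise of 0.80 ± 0.18 (edgeR adjusted p = 0.00301). ZNF845 reached 8.56, 12.1 and 13.3 CPM, a rise of 0.86 ± 0.21 (edgeR adjusted p = 0.00459). In both genes replicate 1 was the lowest SIN3B library yet stood above every control. Of the 24 genes that rose, replicate 1 was the lowest SIN3B library in 19, and replicate 2 in none.

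The most abundant gene, ZNF146, also rose. It stood at 128, 125 and 120.2 CPM in control libraries and at 141, 162 and 161 CPM after SIN3B siRNA, a small change of 0.31 ± 0.07 (edgeR adjusted p = 0.00398). ZNF121, another protein of fingers with no KRAB box, went from 53.0, 42.7 and 50.7 CPM to 66.8, 77.0 and 66.1 CPM, a rise of 0.52 ± 0.11. Neither gene's libraries overlapped between the groups.

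Several genes with control means under 5 CPM rose too. ZNF547 was higher by 1.44 ± 0.52, with overlapping libraries and an adjusted p of 0.0486 in edgeR, a call lost in 14 of 24 alternative settings. ZNF793 rose by 1.40 ± 0.46 from a control mean of 0.714 CPM, ZNF582 by 1.09 ± 0.35 from 1.98 CPM and ZNF493 by 0.95 ± 0.25 from 4.28 CPM. ZNF112, in block 7, rose by 0.73 ± 0.24, a call lost in 10 of the 24 settings. ZNF582 is known as a gene whose promoter is often methylated in cervical cancer. At higher levels, ZNF260 rose by 0.71 ± 0.18 from 10.35 CPM, ZNF254 by 0.64 ± 0.17 from 7.61 CPM and ZNF181, in block 5, by 0.62 ± 0.16 from 6.74 CPM. The other 10 genes that rose, listed after their values were seen, as ZNF260 and ZNF254 were, were ZNF714, ZNF431, ZNF738, ZNF507, ZNF302, ZNF529, ZNF766, ZNF480, ZNF28 and ZNF264.

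ZNF579 was the 1 gene lower after SIN3B knockdown. It stood at 17.9, 20.8 and 19.4 CPM, all below the 27.8 to 30.4 CPM of the control libraries, a fall of 0.61 ± 0.11 (edgeR adjusted p = 0.000463). It lay below control after SIN3A siRNA as well, as given above.

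The number of rises depended on single libraries and on the treatment of GC content. It was 13 without SIN3B replicate 2, 15 without SIN3B replicate 3, 14 without control replicate 2 and 14 without control replicate 3. When GC content and exon length were offset, 8 genes were higher and 2 lower, and the median log2 change was 0.048.

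**Figure D2:**
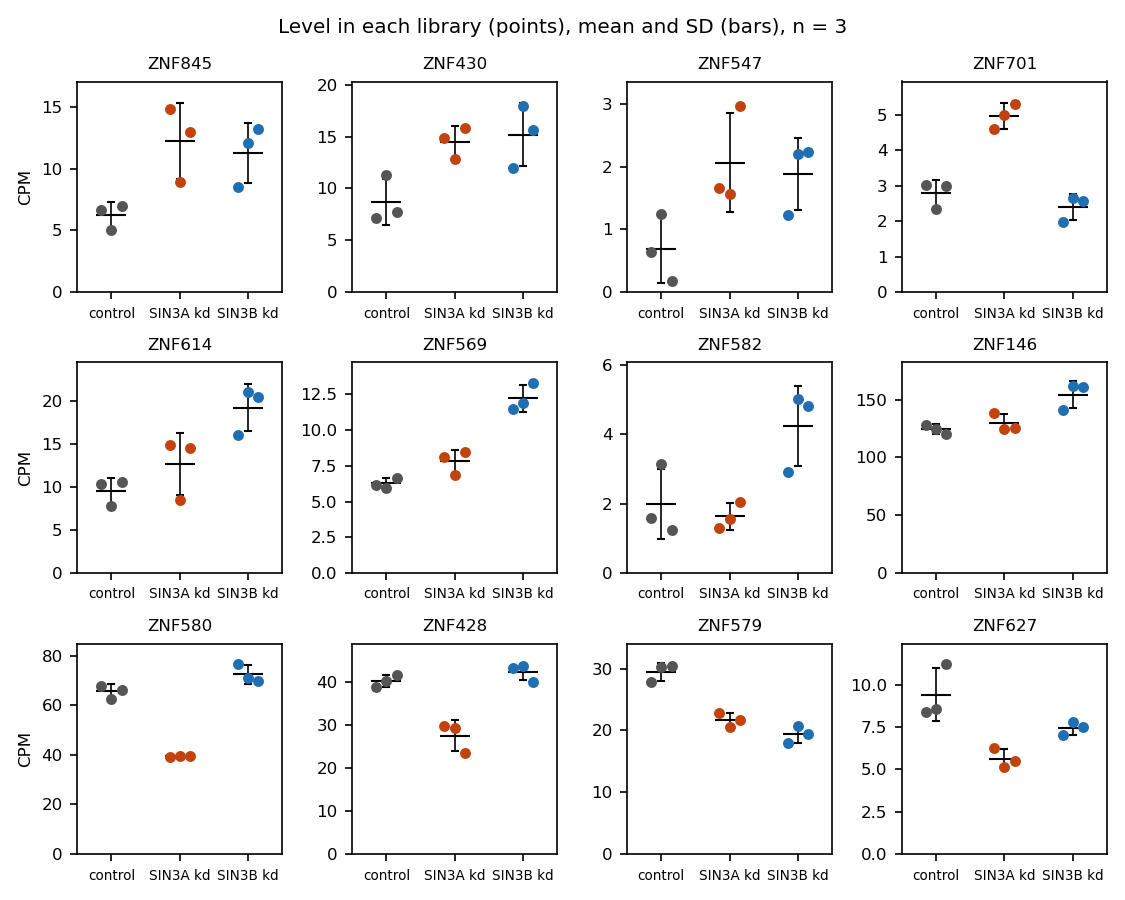
CPM of 12 chromosome 19 ZNF genes in each library, with 1 point per library and the mean and SD of 3 (bars) for control, SIN3A knockdown (SIN3A kd) and SIN3B knockdown (SIN3B kd), each axis starting at 0. ZNF845 and ZNF430 lie above control in both knockdowns, ZNF701 is highest in its SIN3A libraries (4.60 to 5.32 CPM), and ZNF580 stands at 39.0 to 39.6 CPM in the SIN3A libraries against 62.4 or more in all others.

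Set directly against each other, the SIN3A knockdown libraries held less of these transcripts than the SIN3B knockdown libraries. By the same edgeR test, 21 genes were lower after SIN3A than after SIN3B siRNA (11.2%, beside 12.6% of all genes tested) and 1 was higher (0.532%, beside 14.5%). The median log2 difference was -0.157 over the 188 genes and -0.020 over all genes tested, with 63 of the 188 above 0. Libraries did not overlap in 49 genes lower (26.1%, beside 19.5%) and 15 higher (7.98%, beside 19.8%). Of the 21, 6 were lower than control after SIN3A siRNA, 9 were higher than control after SIN3B siRNA, and 6 passed in neither comparison with control.

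ZNF580 had the lowest p here too, at 76.8, 71.0 and 69.7 CPM after SIN3B siRNA against 39.0 to 39.6 CPM after SIN3A siRNA, a difference of -0.88 ± 0.08 (edgeR adjusted p = 1.22e-07). ZNF428 differed by -0.62 ± 0.10, its SIN3B libraries holding 43.3, 43.8 and 40.1 CPM, and ZNF333 by -0.72 ± 0.18. In ZNF428 and ZNF333 the SIN3B libraries overlapped the controls. In ZNF580 all 3 SIN3B libraries lay above the controls, by 0.145 ± 0.08 on the log2 scale, a change that did not pass the test. ZNF569 differed by -0.65 ± 0.16 and ZNF614 by -0.61 ± 0.19, and in these it was the SIN3B libraries that stood apart.

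ZNF582 (ENSG00000018869, chr19:56375846-56393545), a KRAB protein with 9 fingers, had the lowest log2 difference among the genes called. It stood at 1.29, 1.56 and 2.04 CPM after SIN3A siRNA, at 2.905, 5.01 and 4.80 CPM after SIN3B siRNA and at 1.59, 3.13 and 1.23 CPM in control libraries. The knockdown groups did not overlap, with a difference of -1.37 ± 0.35 (edgeR adjusted p = 0.0060), while the controls spread across both. ZNF112 (-0.86 ± 0.24), ZNF470 (-0.77 ± 0.20) and ZNF329 (-0.77 ± 0.26) were the other large differences outside block 6.

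In block 6 the divergent pair ZNF829 and ZNF568 was lower together. The genes start 38 bases apart on opposite strands (ZNF829 ends its minus-strand span at chr19:36916291, and ZNF568 begins at 36916329), and the printed ZNF568 window covers both starts. ZNF829 stood at 6.25, 4.85 and 6.89 CPM after SIN3A siRNA and 8.41, 11.5 and 10.2 CPM after SIN3B siRNA, a difference of -0.74 ± 0.20. ZNF568, whose mouse counterpart represses a placental Igf2 transcript, stood at 2.94, 3.28 and 3.29 CPM and 7.19, 4.57 and 4.64 CPM, a difference of -0.78 ± 0.24. Neither gene passed the test against control in either knockdown. Only 3 pairs of the 188 genes lie head to head within 1000 bases, and in the other 2 pairs (ZNF529 with ZNF382, ZNF790 with ZNF345) no gene was called in the direct comparison.

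ZNF701 was the 1 gene higher after SIN3A than after SIN3B siRNA, at 4.60 to 5.32 CPM against 1.99, 2.65 and 2.56 CPM, a difference of 1.05 ± 0.25 (edgeR adjusted p = 0.00303). Its SIN3B libraries overlapped the controls. The 21 lower genes became 15 without SIN3A replicate 1, 12 without SIN3A replicate 2, 8 without SIN3B replicate 2 and 13 without SIN3B replicate 3.

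By position, block 4 beside the centromere and the long-arm blocks 5, 6 and 8 held most of the rises after SIN3B knockdown. Blocks 4, 6 and 8 hold 72 of the 188 genes (38.3%) and 16 of the 24 genes that rose after SIN3B knockdown, and block 5 holds another 2. In block 4, 6 of 19 genes rose after SIN3B knockdown (31.6%, beside 12% of all genes tested) and 2 after SIN3A knockdown, with median log2 changes of 0.37 and 0.15. In block 5, 2 of 5 genes, ZNF302 and ZNF181, rose after SIN3B knockdown and none after SIN3A knockdown, with medians of 0.234 and -0.035. In block 6, 5 of 23 genes rose after SIN3B knockdown (21.7%) and none after SIN3A knockdown, with medians of 0.405 and 0.035. In block 8, 5 of 30 rose in each comparison (16.7%, beside 12% after SIN3B and 12.2% after SIN3A knockdown), with medians of 0.218 (SIN3B) and 0.328 (SIN3A). When GC content and exon length were offset, the SIN3B rises numbered 1 in block 4, 1 in block 6, 2 in block 8 and none in block 5, and the SIN3A rises 1 in block 4 and 3 in block 8. These counts are descriptions, and the differences between blocks were not tested.

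Block 9, at the end of the long arm, held 6 of the 10 genes that fell after SIN3A knockdown. These are 12% of its 50 genes, near the 10.8% of all genes tested, and 1 gene was higher. The median log2 change was -0.147, and 16 of the 50 lay above 0. After SIN3B knockdown 3 were higher and 1 lower, with a median of -0.033. Blocks 2, 3 and 7 each held 1 gene that fell after SIN3A knockdown and no gene that rose, with medians of -0.134, -0.056 and -0.104. With the offsets the SIN3A median was -0.150 in block 2, -0.172 in block 3, -0.117 in block 7 and -0.101 in block 9, so block 9 did not stand lowest.

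Summed levels per block give each gene weight by its abundance. The 19 genes of block 4 summed to 147, 139 and 134 CPM in control libraries, 149.7, 161 and 175 CPM in SIN3A libraries and 176, 195 and 194 CPM in SIN3B libraries. The SIN3B libraries were all above the SIN3A libraries, which were all above the controls, although the nearest libraries of neighbouring groups were close. Block 6 summed to 249 to 260.3 CPM in control libraries, 253 to 271 CPM in SIN3A libraries and 302, 341 and 343 CPM in SIN3B libraries, so the SIN3B libraries were above all others. Without ZNF146, taken out after its values were seen, the block 6 sum was 132 ± 2.9 CPM (SD, n = 3) in control and 174 ± 11.3 CPM in SIN3B libraries. In block 5 the sum was 48.1 ± 3.0 CPM in control, 47.9 ± 2.1 CPM in SIN3A and 58.6 ± 6.0 CPM in SIN3B libraries, with all 3 SIN3B libraries above the controls.

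Block 8 summed to 172, 166 and 161 CPM in control libraries, 211, 197 and 194 CPM in SIN3A libraries and 177, 217 and 229 CPM in SIN3B libraries. Replicate 1 of the SIN3B group was close to the controls there. Block 9 summed to 598 to 615 CPM in control libraries, 517, 546 and 528 CPM in SIN3A libraries and 582 to 604.5 CPM in SIN3B libraries, and its SIN3A libraries were the lowest 3 of the 9. Much of that difference lay in the abundant genes ZNF580, ZNF444 and ZNF579. Without these, taken out after their values were seen, the block 9 sum was 447 ± 10.3 CPM in control and 422 ± 16.1 CPM in SIN3A libraries, and the fall in the means went from 74.3 to 25.6 CPM. Over all 188 genes the sum was 1966 ± 25.6 CPM (SD, n = 3) in control, 1928 ± 7.63 CPM in SIN3A and 2176 ± 80.7 CPM in SIN3B libraries, which is 0.185 to 0.224% of all counts.

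**Figure D3:**
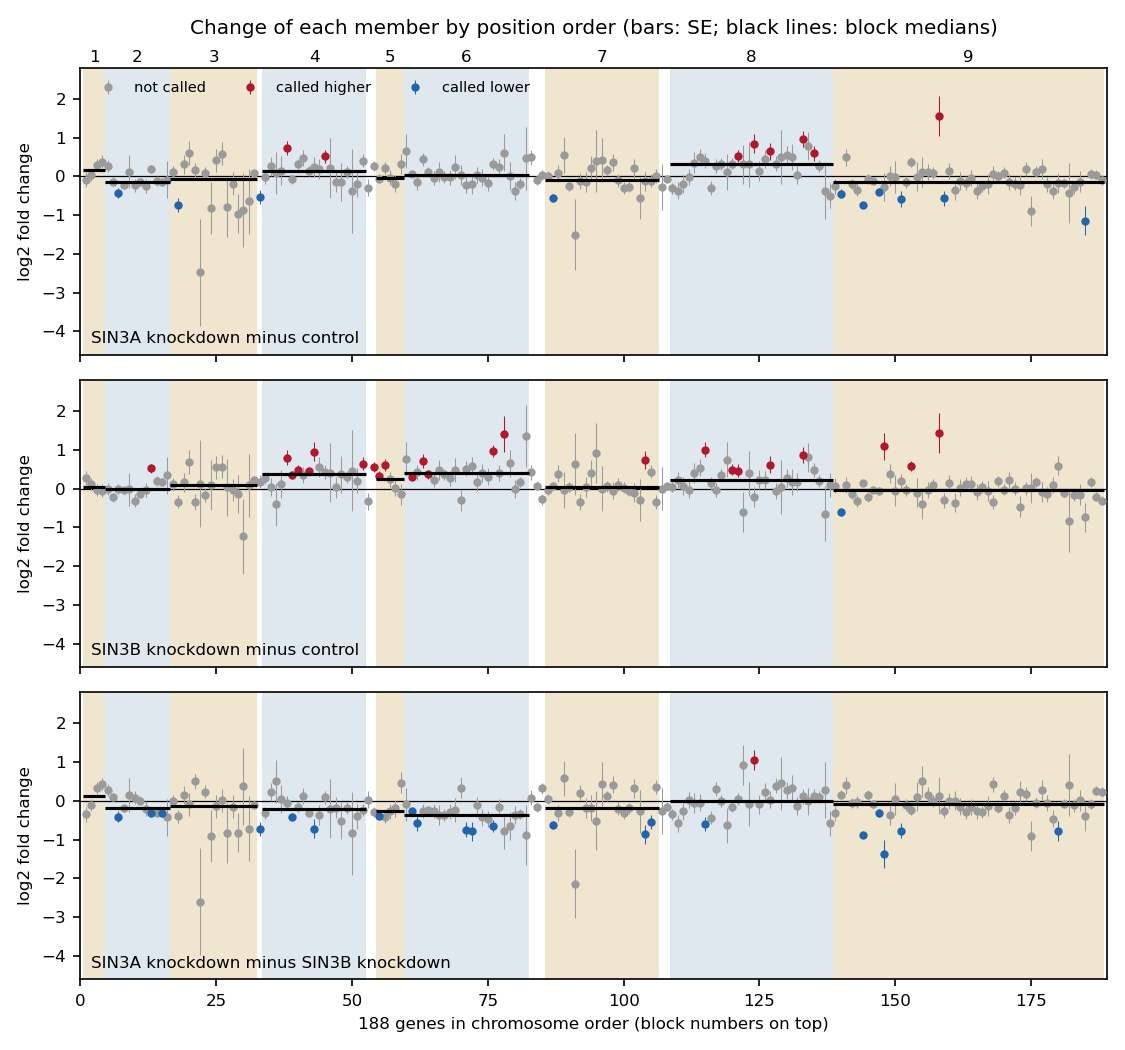
Log2 fold change of each of the 188 genes in chromosome order (points, bars SE from the edgeR fit) for SIN3A knockdown minus control, SIN3B knockdown minus control and SIN3A minus SIN3B knockdown, with blocks shaded, block medians as black lines and called genes in red (higher) and blue (lower). In the middle panel 18 of the 24 red points lie in blocks 4, 5, 6 and 8, where block medians are 0.37, 0.234, 0.405 and 0.218, and the bottom panel has 21 blue points and 1 red.

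**Figure D4:**
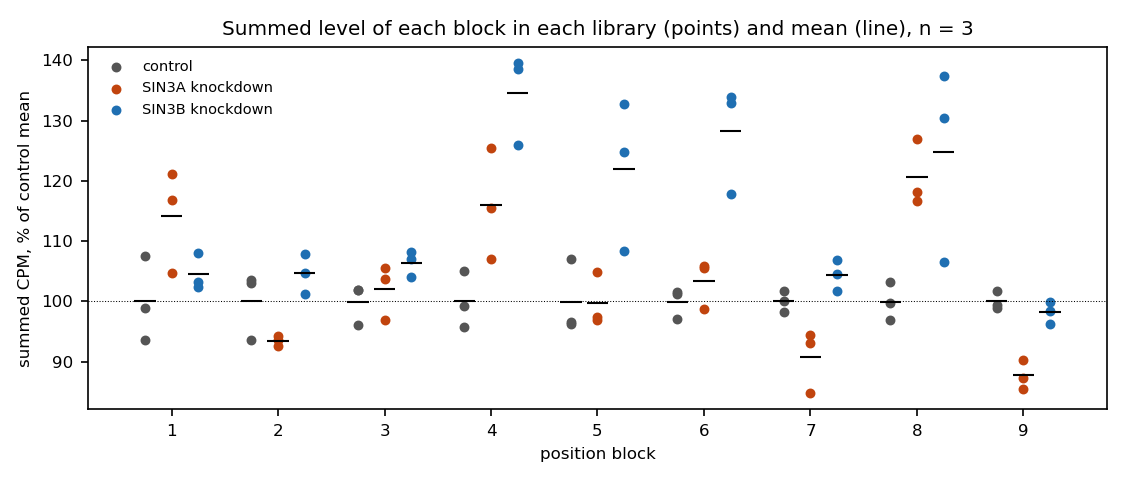
Summed CPM of the genes in each block, as a percentage of the control mean of that block, with 1 point per library and a line at each group mean of 3. Block 4 stands at 116.1% after SIN3A and 134.7% after SIN3B siRNA, block 5 at 99.7% and 122%, block 6 at 103.4% and 128.3%, block 8 at 120.6% and 124.8%, and block 9 at 87.7% and 98.2%.

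GC content differed between called genes that rose and fell, and between blocks. The median transcript GC content of the 188 genes was 42.4%, against 48.6% over all genes tested, and it was 37.3% in block 4, 39.4% in block 6, 41.4% in block 8 and 46.3% in block 9. Block 3, at 41.9%, had no rise in either comparison among 16 genes, and its median control level, 2.49 CPM, was the lowest of the blocks. Block 5, at 43.4%, had 2 of 5 after SIN3B knockdown. These 2, ZNF302 and ZNF181, had GC contents of 37.25 and 37.87%. Whether GC content accounts for differences between blocks was not tested. Blocks 1, 2 and 7 were at 46.6, 43.7 and 42.5%. The 24 genes that rose after SIN3B knockdown had GC contents of 34.1 to 42.4%, and ZNF579, which fell, had 65.8%. The 8 that rose after SIN3A knockdown had 34.4 to 47.4%, and the 10 that fell had 41.0 to 70.1%, with a median of 59.6%.

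Over all protein-coding genes tested, 24.28% of those with GC content under 50% rose after SIN3B knockdown and 7.38% fell, while 3.071% of those at 50% or more rose and 20.38% fell. Of the 160 chromosome 19 ZNF genes under 50%, 15% rose and none fell. Both sets thus leaned upward at low GC content. The ZNF genes had the smaller share of rises but the larger median log2 change, 0.171 against 0.117. Their changes were less precise, with a median SE of 0.201 over the 188 genes against 0.117 over all protein-coding genes tested. When GC content and exon length were offset, the SIN3B median became 0.016 in block 4, 0.166 in block 6 and 0.091 in block 8. The SIN3A median with the same offsets was -0.043 in block 4, 0.237 in block 8 and -0.101 in block 9.

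**Figure D5:**
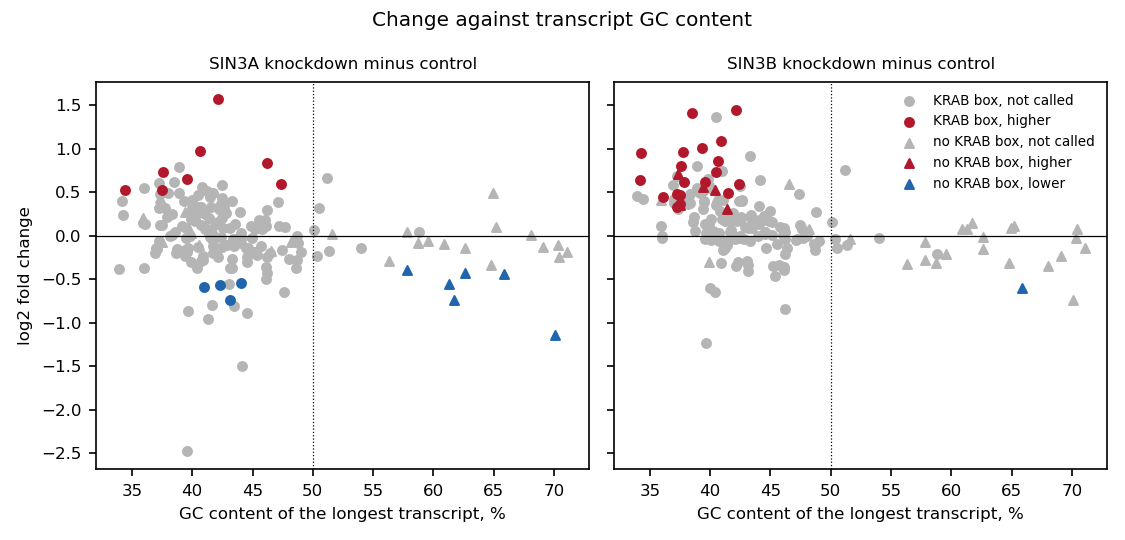
Log2 fold change of each of the 188 genes against the GC content of its longest transcript, for SIN3A knockdown minus control (left) and SIN3B knockdown minus control (right), with circles for KRAB genes, triangles for genes with no KRAB box, red for called higher, blue for called lower and a dotted line at 50%. All 24 rises after SIN3B knockdown lie at 42.4% GC or below, and all 8 rises after SIN3A knockdown at 47.4% or below.

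Protein class and GC content went together, since the 155 KRAB genes had a median GC content of 41.8% and the 33 others 58.7%. After SIN3A knockdown 8 KRAB genes rose (5.2%) and 4 fell (2.6%), and among the 33 others none rose and 6 fell (18.2%). Over all genes tested 12.2% rose and 10.8% fell. After SIN3B knockdown 19 KRAB genes rose (12.26%) and none fell, and among the 33 others 5 rose (15.15%) and 1 fell (3.03%). Over all genes tested 12% rose and 11.6% fell. In the direct comparison 12 KRAB genes (7.7%) and 9 of the others (27.3%) were lower after SIN3A siRNA, beside 12.6% of all genes tested. Differences between the classes were not tested. With the offsets, the KRAB genes had 6 higher and 5 lower after SIN3A knockdown, and 5 higher and 1 lower after SIN3B knockdown. The 33 others then had 1 higher and 5 lower after SIN3A knockdown, and 3 higher and 1 lower after SIN3B knockdown. The offsets turned the order of the class medians: after SIN3B knockdown they were 0.137 (KRAB) and 0.071 (others) without the offsets and 0.022 and 0.125 with them, and after SIN3A knockdown 0.029 and -0.085 without and -0.069 and -0.033 with them.

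Sequence similarity and overlap limit some counts. Of the 188 genes, 40 share over 10% of their 50-mers with another gene, and 106 have exons that overlap another gene, 63 of them on the other strand. The library kit was stranded, but whether counting used the strand is not given in the sources used here. Over all genes tested, 12.2% rose and 10.8% fell after SIN3A knockdown, and 12% rose and 11.6% fell after SIN3B knockdown. Among the 148 genes with at most 10% shared, 7 rose (4.7%) and 9 fell (6.1%) after SIN3A knockdown. After SIN3B knockdown 21 of them rose (14.2%) and 1 fell (0.68%). Among the 82 genes with no exon overlap, 2 rose (2.4%) and 5 fell (6.1%) after SIN3A knockdown. After SIN3B knockdown 12 of them rose (14.6%) and 1 fell (1.22%). Among the 106 with overlap, 6 rose (5.66%) and 5 fell (4.7%) after SIN3A knockdown. After SIN3B knockdown 12 of those rose (11.3%) and none fell. Of the 69 genes with a mean under 5 CPM, 2 rose (2.9%) and 1 fell (1.4%) after SIN3A knockdown. After SIN3B knockdown 4 of them rose (5.8%) and none fell. Over all protein-coding genes tested with a mean under 5 CPM, 1.8% rose and 11% fell after SIN3A knockdown. After SIN3B knockdown 1.44% of those rose and 4.8% fell.

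Transcripts of KRAB corepressor genes and other chromatin genes were measured beside those of the ZNF genes. Of a list of 30 such genes, 8 were higher and 8 lower after SIN3A knockdown (26.7% each, beside 12.2% and 10.8% of all genes tested) in the edgeR test. After SIN3B knockdown 8 were higher (26.7%, beside 12%) and 5 lower (16.7%, beside 11.6%). The genes of the list were abundant, with control means of 32.7 to 609 CPM, and their fold changes had a median SE of 0.076, against 0.138 over all genes tested and 0.203 (SIN3A) or 0.201 (SIN3B) over the 188 ZNF genes. TRIM28 (ENSG00000130726, chr19:58544091-58550722), the corepressor that KRAB domains bind, lies just beyond the last ZNF gene of block 9. It stood at 612, 615 and 599 CPM in control libraries, at 521, 551 and 524 CPM after SIN3A siRNA and at 637, 620.1 and 597 CPM after SIN3B siRNA. The SIN3A libraries were all below the rest, with a fall of 0.20 ± 0.06 (edgeR adjusted p = 0.0265), and the SIN3B change was 0.02 ± 0.06.

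SETDB1, the H3K9 methyltransferase recruited by TRIM28, fell by 0.24 ± 0.08 after SIN3A knockdown (edgeR adjusted p = 0.0361), with a SIN3B change of -0.03 ± 0.08. Of the HP1 genes, CBX5 fell after both, by 0.70 ± 0.06 (SIN3A) and 0.27 ± 0.06 (SIN3B), CBX3 rose by 0.31 ± 0.07 and 0.44 ± 0.07, and CBX1 rose by 0.41 ± 0.07 after SIN3A knockdown. Among deacetylase and NuRD subunits, HDAC1 rose by 0.48 ± 0.06 and 0.38 ± 0.06, HDAC2 rose by 0.23 ± 0.07 after SIN3A knockdown, and MBD3 and RBBP4 fell by 0.61 ± 0.08 and 0.61 ± 0.06 after SIN3A knockdown. CHD3 fell by 0.49 ± 0.07 and 0.18 ± 0.07.

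Of the HUSH complex and its partner, MORC2 fell by 0.31 ± 0.08 after SIN3A knockdown and PPHLN1 rose by 0.36 ± 0.08 in each comparison. The histone H3.3 loader DAXX fell by 0.59 ± 0.08 after SIN3B knockdown, and its partner ATRX rose by 0.61 ± 0.17 and 0.79 ± 0.17. SUMO2 rose by 0.18 ± 0.07 and 0.22 ± 0.07. NSD1 fell by 0.25 ± 0.07 after SIN3A knockdown. After SIN3B knockdown, SMARCAD1 rose by 0.46 ± 0.10, SUV39H2 by 0.48 ± 0.11, DNMT3B fell by 0.34 ± 0.09 and UHRF1 by 0.39 ± 0.08. The list therefore had no common direction in either comparison.

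Other genes give the frame for these values. The 212 ZNF genes of other chromosomes, chosen by the same floor, had 17 higher and 32 lower after SIN3A knockdown, 34 higher and 15 lower after SIN3B knockdown, and medians of -0.023 and 0.051. In the direct comparison 47 of these 212 were lower after SIN3A siRNA (22.2%, beside 11.2% of the 188 genes and 12.6% of all genes). Another 17 were higher (8.02%, beside 14.5% of all genes). The direct median of the 212 was -0.136, beside -0.157 over the 188 genes. Of the 75 other protein-coding genes inside the blocks, 10 were higher (13.3%) and 7 lower (9.33%) after SIN3A knockdown. After SIN3B knockdown 2 were higher (2.67%) and 5 lower (6.67%), with a SIN3B median of -0.057. Their median GC content was 59.3%. Of the 717 other genes of the chromosome outside the blocks, 33 were higher (4.6%) and 122 lower (17.0%) after SIN3B knockdown, with a median of -0.096. A list of 10 other zinc finger genes of the chromosome, whose symbols start with letters such as ZFP or ZSCAN, had 2 higher (20%) and none lower after SIN3B knockdown. Its median was -0.176. The SIN3B medians of these chromosome 19 lists were negative, unlike that of the 188 genes. Their median GC contents, 50.9 to 60.4%, were above the 42.4% of the 188 genes. Over all protein-coding genes at 50% or more, 3.071% rose and 20.38% fell after SIN3B knockdown. Differences between the lists were not tested.

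A last measure concerned 7-base sequences in 3′ UTRs that an earlier scan of these same libraries had tied to lower values in a knockdown, and so is no independent evidence. GGTCTAA or AGGTCTA was found in 3′ UTRs of 8 of the 188 genes (4.255%, beside 7.243% of protein-coding genes tested), and 2 of these 8, ZNF627 and ZNF470, fell after SIN3A knockdown. That share, 25%, was near that of all protein-coding genes with these letters, of which 25.5% fell. Without the letters, 4.444% of 180 genes of the set and 11.31% of protein-coding genes fell. The sites of ZNF627 and ZNF470 are printed because both genes are among the 4 KRAB genes that fell. They are given in the GENCODE 29 transcript, with capitals for the 7-base match or overlapping matches.
ZNF627 3′ UTR, bases 620 to 649: aattggcatacGGTCTAAtttgtgtagtaa
ZNF470 3′ UTR, bases 2353 to 2382: gagatattaaAGGTCTAAatgtaaaattaa

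The other 6 genes with such a site did not pass the test. ACAGCCT or CAGCCTT, from the scan of the SIN3B knockdown, was found in 38 of the 188 genes (20.21%, beside 23.23%). After SIN3B knockdown 7 of the 38 rose (18.4%) and none fell. Of the 150 without these letters 11.33% rose and 0.6667% fell. Over all protein-coding genes with these letters 10.99% rose and 21.6% fell, and over those without 15.51% rose and 10.98% fell.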

How the data were processed

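Stranded poly-A TruSeq libraries of HEK293T cells given control, SIN3A or SIN3B siRNA formed 3 groups of 3. The table the authors deposited gives a read count for each Ensembl gene. Per the submitters' processing notes, reads were processed with Trimmomatic 0.36, HISAT2 2.1.0, HTSeq and DESeq2 1.20.0 on GRCh38. The authors also deposited FPKM values for the same libraries; the gene lengths behind them did not track exon length, so FPKM was compared within a gene only. Levels between genes are CPM per kb of GENCODE 29 exon.

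Counts were tested in edgeR 4.0.16 (R 4.3.3) with TMM factors, filterByExpr at its defaults (minimum count 10, minimum total 15) and the robust quasi-likelihood F-test, in 1 fit of 9 libraries with 6 residual degrees of freedom. P-values were adjusted by Benjamini-Hochberg over 16686 genes in each of 3 comparisons, threshold 0.05. Steps were tested on simulated data. Depth was 22542798 to 27084884 counts per library; arms of 3 libraries limit the precision.

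Fingers and KRAB A boxes (at least 9 of 10 pattern positions) were counted in proteins translated from GENCODE 29, in place of the RefSeq proteins first planned. Promoters are from RefSeq (GRCh38.p14). Blocks begin after 1 Mb between starts. Named genes were the 6 with the highest mean CPM, up to 8 called rises and 8 called falls per comparison with a mean of at least 1 CPM, the gene of lowest p in each block if called, TRIM28, SETDB1 and the called genes of the corepressor list. Genes outside this rule are named where they overlap or neighbour a named gene, or complete a list of calls. Not every gene this rule names is reported here. The genes and lists were chosen with earlier results of these data known.

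Alternatives were RLE, upper-quartile and total-count scaling, other count filters, DESeq2 1.42.0, limma 3.58.1 on log2(FPKM + 1) and log2(FPKM + 0.1), counts divided by 4, 6-library fits, a fold threshold of 1.2, the replicate number as a block, offsets for GC content and exon length (also with the block), a block distance of 500 kb, and leaving out each library. A fit without robust moderation was chosen after seeing the data. Figures were drawn with matplotlib 3.10.9.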

Additional observations from a re-analysis of the deposited data

How the results depend on the processing

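All 43 calls of named genes kept their direction under the 24 alternatives run; 868 of 1032 values stayed past the threshold and 164 did not. The losses were uneven: 18 calls were kept in all 24, while ZNF547 after SIN3B knockdown was lost in 14, and ZNF112 after SIN3B and ZNF100, ZNF28 and ZNF837 after SIN3A knockdown in 10 each. After SIN3A knockdown, genes higher (8) were 5 with upper-quartile factors, 2 at a fold threshold of 1.2, 5 with GC and length offsets plus the replicate block, and 3 to 10 when 1 library was left out. Genes lower (10) were 6 by limma on log2 FPKM with either pseudocount, 6 with only the 6 libraries compared, 3 at a fold threshold of 1.2, and 6 to 10 when 1 library was left out. After SIN3B knockdown, genes higher (24) were 15 and 14 by limma with pseudocounts of 1 and 0.1, 9 at a fold threshold of 1.2, 8 with GC and length offsets, 9 with these offsets and the replicate block, and 13 to 24 when 1 library was left out. Genes lower (1) were 2 with the 6 libraries, 2 with the offsets, and 1 to 2 when 1 library was left out. In the direct comparison, genes higher (1) were 2 without robust moderation, 2 with RLE factors, 2 with the filter at 1 CPM, 2 by DESeq2, 2 by limma with either pseudocount, 3 with the offsets with and without the block, and 1 to 3 when 1 library was left out. Genes lower (21) were 8 at a fold threshold of 1.2 and 8 to 23 when 1 library was left out. A stricter fold threshold lowers such counts by its construction. Leaving out 1 library lowered counts in some fits and raised them in others, to as many as 10 higher after SIN3A knockdown and 23 lower in the direct comparison. The cause of the changes other than those from the fold threshold was not tested. The SIN3A median ranged from -0.073 to 0.024 over the alternatives with all libraries and so has no fixed sign, the SIN3B median from 0.048 to 0.128 and the direct median from -0.187 to -0.115. A block distance of 500 kb gave 10 blocks. Replicate numbers did not pair the libraries: deviations of the 9 same-number pairs correlated at -0.171 to 0.0674, and with the replicate block 8 genes were higher and 9 lower after SIN3A knockdown, 18 and 1 after SIN3B knockdown, and 1 and 20 in the direct comparison. Depth limits the 69 genes with a mean under 5 CPM most; a difference not detected there is not shown to be absent.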
